A study of Homo sapiens with 45 samples.

Results

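Long noncoding RNAs are transcripts that act, where they act, as RNA and not through a protein. The 9 described here are MALAT1, NEAT1, H19, HOTAIR, PVT1, GAS5, SNHG1, MIAT and LINC00511, which are among the long noncoding RNAs most often measured in cancer cells. They were chosen by name, and each symbol matched 1 of the 64485 genes in the count table. Their levels were read in 45 RNA sequencing libraries, 3 from each of 15 established lines of human breast cancer cells. No line was treated and none was edited. The study's title concerns breast cancer cells with high MYC, and the labels set no line as a control, so the comparisons are between lines, along the level of MYC and between growth media.

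Of the 15 lines, 5 were grown in L-15 (MDA-MB-436, MDA-MB-468 and MDA-MB-157, with MDA-MB-453 and MDA-MB-231), 8 in RPMI 1640 (HCC70, HCC38, HCC1937, HCC1143, BT-549, HCC1806, HCC1187 and HCC1395), BT-20 in EMEM and Hs578T in DMEM. Serum and antibiotics were added to every medium. Glutamine was added to EMEM, RPMI 1640 and DMEM, insulin for BT-20, BT-549 and MDA-MB-436, and glutathione for MDA-MB-436. Sequencing runs 1 and 2 held 4 of the lines, namely MDA-MB-231, Hs578T, HCC38 and HCC1143. Each of runs 3, 4 and 5 held 1 library from every one of the remaining 11. The 2 sets of runs cannot be told apart from the sets of lines in them. Whether the libraries of a line are separate cultures is not stated in the labels, and the p-values measure a spread between libraries that may be technical. The RNA was total RNA without poly(A) selection, so transcripts without a poly(A) tail could be counted too.

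The libraries held between 2312138 and 14653677 counts (median 6263573), and the 9 long noncoding RNAs together took 0.079% to 0.747% of them (median 0.292%). The labels call every line epithelial. The summed level of 16 epithelial markers in CPM (counts scaled to the size of the library, here over the 3 libraries of a line together) ranged from 11953 CPM in BT-20 to 103 CPM in BT-549. It was also low in Hs578T (161 CPM), MDA-MB-436 (197 CPM), HCC1395 (267 CPM) and MDA-MB-157 (383 CPM), so in these 5 lines the label stands beside few epithelial transcripts. The 14 mesenchymal markers summed to 15288 CPM in Hs578T and 55.7 CPM in MDA-MB-453. The 6 fibroblast markers reached 3844 CPM in Hs578T and 1962 CPM in MDA-MB-157, and lay between 4.20 and 415 CPM elsewhere. The 6 blood cell markers stayed between 1.16 and 35.8 CPM and the 5 endothelial markers between 1.56 and 118 CPM. The part of these differences between lines in the values below was not tested.

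MALAT1 is kept in nuclear speckles, bodies rich in splicing factors, and NEAT1 is the scaffold of paraspeckles, a neighbouring kind of nuclear body. H19 is an imprinted transcript of fetal tissues that is also the precursor of a microRNA, and HOTAIR is an antisense transcript of the HOXC cluster that has been studied for its link to polycomb proteins. PVT1 lies next to MYC and is often amplified with it, GAS5 and SNHG1 host small nucleolar RNAs (snoRNAs) in their introns, MIAT is a nuclear transcript first linked to myocardial infarction, and LINC00511 is transcribed near the gene of the cartilage factor SOX9.

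By the GENCODE 29 annotation of GRCh38, 4 of the 9 genes lie on chromosome 11. MALAT1 is at chr11:65497688-65506516 on the plus strand, and NEAT1 at chr11:65422774-65445540 on the same strand ends 52.1 kb before it. H19 is at chr11:1995176-2001470 and SNHG1 at chr11:62851988-62855914, both on the minus strand. HOTAIR is at chr12:53962308-53974956 (minus strand), GAS5 at chr1:173863900-173868882 (minus), MIAT at chr22:26646428-26676475 (plus) and LINC00511 at chr17:72290091-72640472 (minus). Their exons together cover between 2602 bases in HOTAIR and 27605 bases in LINC00511.

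Several of these RNAs are cut into shorter products or carry them in introns. Sequences of some of these stretches are given below, and the counts after them show which product had counts of its own. The end of MALAT1 (GENCODE 29, GRCh38, chr11:65506007-65506116, plus strand) folds into a triple helix in place of a poly(A) tail. The capitals mark each run of at least 5 T or A, and the longest run has 13 A. Directly after it comes the tRNA-like mascRNA (chr11:65506117-65506173, plus strand), which is cut off when the end is formed.
MALAT1 end: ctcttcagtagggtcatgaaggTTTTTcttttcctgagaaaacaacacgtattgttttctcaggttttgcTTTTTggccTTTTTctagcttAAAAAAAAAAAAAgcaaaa
mascRNA: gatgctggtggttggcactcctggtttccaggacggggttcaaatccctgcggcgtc
The hairpin of MIR675 lies in an exon of H19. Its mature microRNAs (RefSeq, GRCh38.p14, minus strand) are at chr11:1996800-1996822 for the 5p arm and at chr11:1996768-1996787 for the 3p arm, and the capitals mark the seed, bases 2 to 8.
hsa-miR-675-5p: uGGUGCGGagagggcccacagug
hsa-miR-675-3p: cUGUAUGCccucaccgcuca
SNORD30, a box C/D snoRNA, lies in SNHG1 at chr11:62853663-62853732 (GENCODE 29, GRCh38, minus strand). The capitals mark its C box (TGATGA) and its D box (CTGA).
SNORD30: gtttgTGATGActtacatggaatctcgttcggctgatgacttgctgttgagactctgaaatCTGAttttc
In the count table mascRNA and MIR675 had 0 counts in all 45 libraries, and SNORD30 had 688 counts in all. The first 2 lie inside an exon of the host on its strand. SNORD30 does not lie wholly inside one, though it shares exon bases with SNHG1. The same held across the table. Of 615 genes of at most 300 bases inside an exon of another gene on the same strand, 14 (2.28%) had any count, against 215 of 255 (84.3%) inside an exon on the opposite strand and 7907 of 9063 (87.2%) outside exons of other genes. All 19 genes that the annotation places inside an exon of the 9 long noncoding RNAs on the same strand had 0 counts, among them the SNHG1 snoRNAs SNORD22, SNORD25, SNORD26, SNORD27 and SNORD28. A count of 0 for these products is thus no measure of their level. The table does not show whether reads from them were counted for the host or for neither gene.

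The first comparison asked how far each of the 9 RNAs differed among the 15 lines. All 9 differed (edgeR quasi-likelihood F test over 45 libraries, Benjamini-Hochberg adjustment over 20587 genes), with the largest adjusted p of 2.99e-11 for MIAT. Nearly every gene did so here, since 20224 of the 20587 genes (98.2%) passed the same test. All 9 also passed among the 11 lines of runs 3 to 5 alone and among the 4 lines of runs 1 and 2 alone. Per kilobase of exon, the median level over the lines was 195 CPM for MALAT1, 97.6 for GAS5, 28.1 for SNHG1, 12.2 for NEAT1, 2.38 for PVT1, 1.65 for HOTAIR, 0.459 for LINC00511, 0.231 for H19 and 0.154 for MIAT. The order by abundance was not the order by spread. The distance between the highest and lowest line mean was widest for H19, at 9.34 on the log2 CPM scale, a value that depends on the prior count since its low end is a line with 1 count. It was followed by 6.92 for LINC00511 and 5.68 for HOTAIR. It was 3.43 for NEAT1, 3.06 for MIAT, 2.33 for MALAT1, 2.25 for PVT1, 2.201 for SNHG1 and 2.01 for GAS5, beside a median of 2.76 over all tested genes.

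Each line was then set against the mean of the other 14 lines, and was called different where the adjusted p was under 0.05 and the fold change reached 1 on the log2 scale in either direction. Of 135 combinations of RNA and line, 26 (19.3%) were called higher and 33 (24.4%) lower. Over all genes tested, 16.2% of combinations were called higher and 12.5% lower. By line, MDA-MB-468 had the most higher calls, with 4 of the 9 RNAs (background 14.7%), and HCC38 and HCC1187 the most lower calls, with 4 each (backgrounds 10.2% and 12.5%). MDA-MB-468 had 1 lower call (background 9.19%), and Hs578T had 1 higher and 2 lower calls (backgrounds 20.9% and 9.56%). Of all pairs of lines, 94 differed for LINC00511, 84 for HOTAIR, 81 for H19, 76 for NEAT1, 70 for SNHG1, 68 for GAS5, 63 for MALAT1, 62 for PVT1 and 57 for MIAT, where a pair differed in 54.8% of all gene and pair combinations. The share for MIAT, 54.3%, was near this background.

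**Figure D1:**
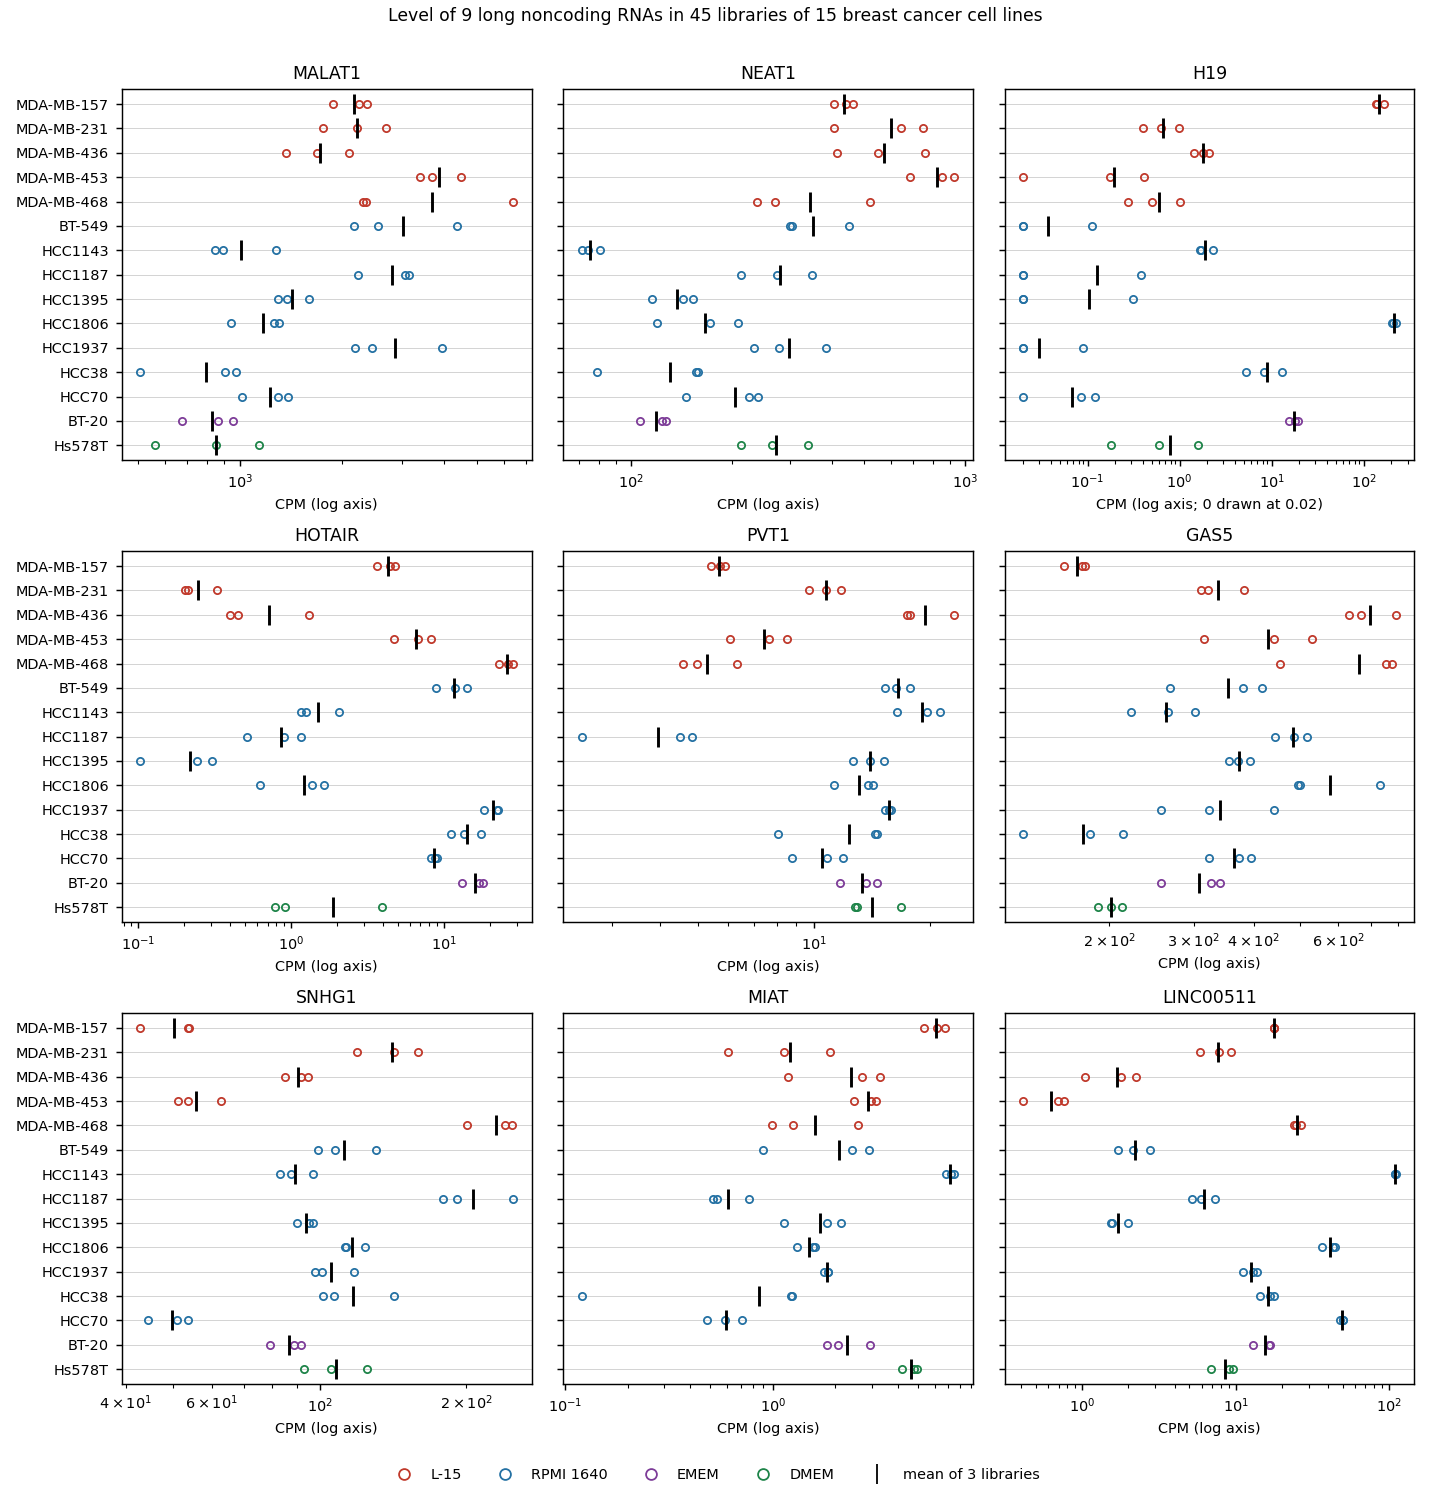
Level of each long noncoding RNA in CPM (log axis) in the 45 libraries, 1 row per line, with open circles for libraries coloured by growth medium and black bars for the mean of 3 libraries. Libraries of H19 at 0 counts are drawn at the left edge. H19, HOTAIR and LINC00511 spread over the widest ranges, while MALAT1, PVT1, GAS5 and SNHG1 stay within 5-fold between the highest and lowest line mean.

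MALAT1, the speckle RNA, had the highest level per kilobase of exon of the 9 in 14 of the 15 lines. The exception was HCC1806, where it had 132 CPM per kilobase and GAS5 had 158 CPM. In MDA-MB-436 MALAT1 and GAS5 were close, with means of 195 and 192 CPM per kilobase. MALAT1 stood at 3410, 4481 and 3679 CPM in the libraries of MDA-MB-453 and at 6394, 2307 and 2350 CPM in those of MDA-MB-468. It was lowest in HCC38, with 973, 508 and 902 CPM, in BT-20, with 863, 674 and 951 CPM, and in Hs578T, with 1140.2, 561 and 850.1 CPM. The first line lay above these 3 without overlap, whereas the mean of MDA-MB-468 rested on replicate 1, which stood far above the other libraries of that line. Between these ends the line means were 3034 CPM in BT-549, 2821 in HCC1187, 2863 in HCC1937, 2223 in MDA-MB-231, 2172 in MDA-MB-157, 1719 in MDA-MB-436, 1425 in HCC1395, 1229.8 in HCC70, 1168 in HCC1806 and 1006 in HCC1143. No line differed from the next in the order of levels. In these bulk libraries, fewer cells with an RNA and less of it per cell cannot be told apart. Against the other lines the log2 fold change was 1.25 ± 0.18 (SE) in MDA-MB-453 (edgeR adjusted p 8.45e-08) and 1.18 ± 0.18 in MDA-MB-468. Without replicate 1 the value in MDA-MB-468 was 0.50 (adjusted p 0.0396), under the fold threshold. The 3 lower calls were -1.19 ± 0.23 in HCC38, -1.12 ± 0.23 in BT-20 and -1.08 ± 0.23 in Hs578T. The call in Hs578T was lost with DESeq2 size factors (-0.97), without its shallowest library (-0.86) and without MDA-MB-468 replicate 1 (-0.99). Of the 4 lines of runs 1 and 2, MDA-MB-231 was called higher than the others of those runs (1.34), and HCC38 (-0.70) and Hs578T (-0.44) were not called there.

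NEAT1, the paraspeckle scaffold, had its 4 highest line means in lines grown in L-15. Its count is 1 value over 22767 bases of exon, so shorter and longer transcripts of the gene cannot be told apart. MDA-MB-453 had 685, 854 and 929 CPM, MDA-MB-231 had 405, 749.8 and 643 CPM, and MDA-MB-436 had 761, 548 and 413 CPM. HCC1143 stood lowest with 74.5, 80.7 and 71.2 CPM, below BT-20 at 124, 106 and 127 CPM and HCC38 at 156, 78.9 and 159 CPM. The 3 high lines did not overlap with the 3 low ones, and every library of HCC1143 but 1 lay under every other library of the series. In between were MDA-MB-157 at 436 CPM, BT-549 at 351, MDA-MB-468 at 343, HCC1937 at 298, HCC1187 at 278, Hs578T at 273, HCC70 at 204, HCC1806 at 167 and HCC1395 at 137. HCC1143 differed from the line above it (adjusted p 0.0350), the one such step in the order. The log2 fold change against the other lines was 1.77 ± 0.16 in MDA-MB-453 (edgeR adjusted p 1.34e-13), 1.28 ± 0.17 in MDA-MB-231 and 1.21 ± 0.17 in MDA-MB-436, and it was -1.92 ± 0.23 in HCC1143, -1.22 ± 0.21 in BT-20 and -1.07 ± 0.21 in HCC38. The call in MDA-MB-436 was lost without replicate 1 of every line (0.99) and that in HCC38 without replicate 2 (-0.86).

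MALAT1 and NEAT1, which neighbour each other, varied together. Over the 15 line means their log2 CPM had a Pearson r of 0.73 and a Spearman rho of 0.75. It was 0.63 without HCC38 and MDA-MB-453, the lines farthest out in MALAT1, 0.75 over the 11 lines of runs 3 to 5 and 0.86 over the 8 RPMI 1640 lines. The libraries of 1 line moved together as well. When each library was taken as its deviation from the mean of its line, r was 0.86 over 45 libraries and the 2 RNAs deviated to the same side in 42 of them. Without MDA-MB-468 replicate 1, where NEAT1 stood at 521 CPM against 270 and 239 CPM in the other libraries of that line, r was 0.84 over 44 libraries. It was 0.88 in the 33 libraries of runs 3 to 5 and 0.795 in the 12 of runs 1 and 2. The points share the libraries and their scaling, so these values are descriptions and no p is given. The deviations of MALAT1 had r of 0.33 with those of the total count, -0.28 with the number of genes detected and 0.25 with the share of protein-coding counts, and their part in this was not tested. No other pair of the 9 RNAs reached 0.50 in these deviations, where MIAT with NEAT1 stood at 0.49 and SNHG1 with PVT1 at 0.47.

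**Figure D2:**
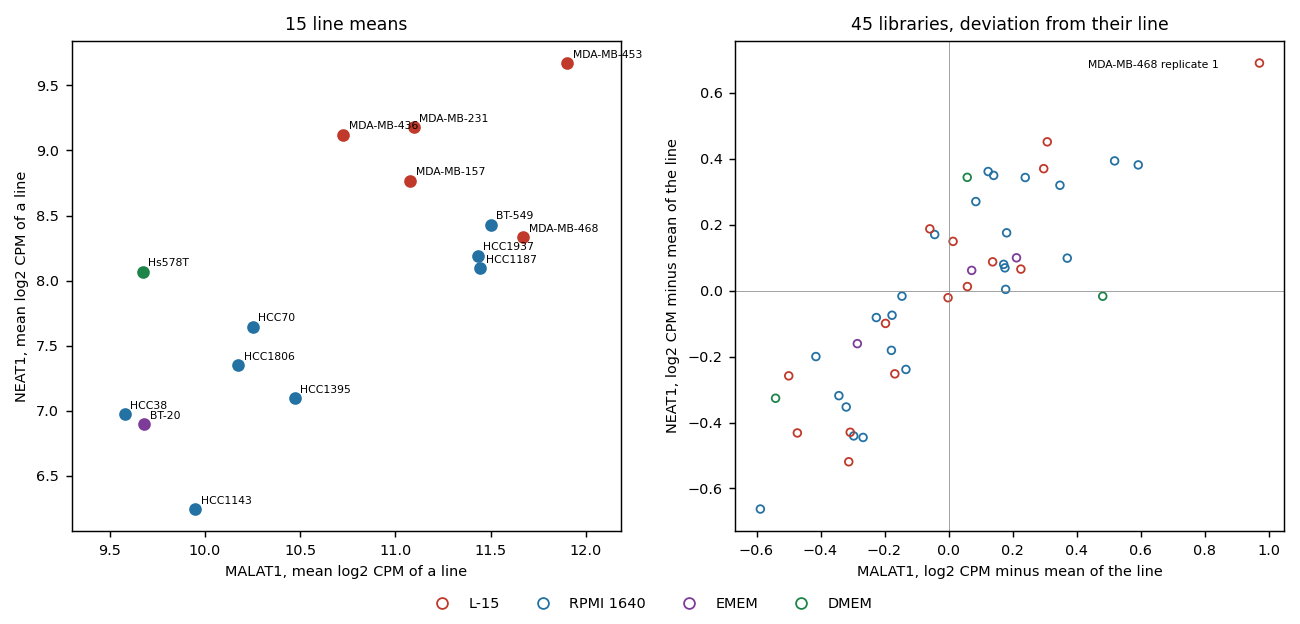
NEAT1 against MALAT1 as mean log2 CPM of the 15 lines (left) and as the deviation of each of 45 libraries from the mean of its line (right), coloured by growth medium. The points rise together in both panels, and MDA-MB-468 replicate 1 lies at the upper end on the right.

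Of 20 proteins known from paraspeckles, 19 were tested and all 19 differed among the lines (98.2% of all genes). The widest spread was in PSPC1, a core paraspeckle protein, which reached 212 ± 13.9 CPM in MDA-MB-453 (SD, n = 3). It was 0.732 ± 0.478 CPM in MDA-MB-157, where NEAT1 stood at 436 ± 28.2 CPM. RUNX3, a transcription factor, followed with 22.5 ± 4.2 CPM in HCC70 and 0.279 CPM in MDA-MB-231, and the chromatin remodeller SMARCA4 with 317 ± 17 CPM in HCC1187 and 20.3 ± 1.9 CPM in HCC1395. Of the 19, 3 had an r above 0 with NEAT1 over the line means, and the median was -0.18 beside 0.03 over all genes. The lowest was the RNA-binding protein DAZAP1 at -0.78 (-0.84 over the 11 lines of runs 3 to 5), while SFPQ and NONO, which NEAT1 needs to form paraspeckles, stood at -0.33 and -0.09. For the 18 nuclear speckle proteins and MALAT1 the median r was 0.09, between -0.32 for SRSF1 and 0.53 for SRRM2, both of the splicing machinery.

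H19, the imprinted fetal transcript, was high in 2 lines and close to absent in most others. It stood at 207, 224 and 206 CPM in HCC1806 and at 135, 167 and 139 CPM in MDA-MB-157. BT-20 followed with 19.4, 15.7 and 17.8 CPM and HCC38 with 8.22, 13.1 and 5.21 CPM. These 4 lines did not overlap with any other line, and each differed from the next, by log2 0.53 from HCC1806 to MDA-MB-157 (edgeR adjusted p 0.0166), 3.06 from MDA-MB-157 to BT-20, 0.96 from BT-20 to HCC38 and 2.27 from HCC38 to HCC1143. HCC1143 had 31 counts over its 3 libraries, MDA-MB-436 36, Hs578T 15, and MDA-MB-231 and MDA-MB-468 11 each. MDA-MB-453 had 4 counts, HCC1395 3, HCC1187 and HCC70 2 each, and BT-549 and HCC1937 1 each. The last 6 lines were the ones called lower, and H19 had no count in 10 of the 45 libraries. A fold change against so few counts depends on the counting error and on the prior count, so none is given of H19 in a line against the other lines. With replicate 2 or replicate 3 left out of every line, some lines have no H19 count at all and the lower calls of H19 cannot be read from the fit, while HCC1806, MDA-MB-157, BT-20 and HCC38 were called higher in all 11 alternatives in which each took part.

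The neighbours of H19 were measured in part. IGF2, the growth factor gene imprinted in the opposite way, has 2 overlapping entries in the annotation with 3 and 7 counts in all libraries. No level was read from them, since reads in overlapping entries may be counted for neither. Of 6 neighbours tested, 5 had an r above 0 with H19 over the line means, and the median was 0.35 beside -0.004 over all genes. The highest was the troponin gene TNNT3 at 0.69 (Spearman rho 0.48), and the lowest the protease gene CTSD at -0.0018. The highest line mean of TNNT3 was 3.25 CPM, and H19 had few counts in most lines, so such values depend on the prior count. Of 11 other imprinted genes tested, all 11 differed among lines, as 98.2% of all genes did. PEG10, a retrotransposon-derived gene, had 838 ± 167 CPM in MDA-MB-453 and 0.909 ± 0.212 CPM in HCC1143, MEST had 284 ± 29 CPM in HCC38 and 0.667 ± 0.657 CPM in HCC70, and the adaptor gene GRB10 had 136 ± 19 CPM in HCC1187 and 0.288 ± 0.413 CPM in HCC1395. Their median r with H19 was 0.26, from -0.31 for GRB10 to 0.64 for NDN.

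HOTAIR, the HOXC antisense RNA, was called in 14 of the 15 lines, the most of the 9 RNAs, with 7 higher and 7 lower. MDA-MB-468 had 23.0, 28.2 and 26.3 CPM, HCC1937 18.4, 22.5 and 22.1 CPM, and BT-20 17.99, 13.1 and 17.03 CPM. MDA-MB-231 had 0.202, 0.325 and 0.210 CPM and HCC1395 0.304, 0.242 and 0.103 CPM, from 4 and 5 counts in all. The high and low lines did not overlap, and the step from MDA-MB-157 at 4.29 CPM to Hs578T at 1.87 CPM was the one place in the order where neighbours differed (log2 1.48, edgeR adjusted p 0.00128). Above this step were also HCC38 at 14.04 CPM, BT-549 at 11.6, HCC70 at 8.66 and MDA-MB-453 at 6.58, and below it HCC1143 at 1.49, HCC1806 at 1.21, HCC1187 at 0.856 and MDA-MB-436 at 0.718. In Hs578T the library with the fewest counts of the series, replicate 2, stood at 3.90 CPM against 0.788 and 0.911 CPM in the others. The log2 fold change against the other lines was 3.23 ± 0.16 in MDA-MB-468 (edgeR adjusted p 4.42e-22), 2.91 ± 0.16 in HCC1937 and 2.49 ± 0.18 in BT-20, and -4.12 ± 0.44 in HCC1395 and -3.82 ± 0.48 in MDA-MB-231. The calls in HCC1143, Hs578T and MDA-MB-453 lay near the fold threshold. With the sequencing run as a block they were -0.95, -0.86 and 0.99 and no longer called.

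The genes of the HOXC cluster, which code for homeobox factors of body patterning, followed HOTAIR in part. All 10 tested differed among lines (98.2% of all genes), and 9 had an r above 0 with HOTAIR over the 15 line means, with a median of 0.54 beside -0.01 over all genes. HOXC11, which overlaps HOTAIR on the opposite strand without sharing exon bases, stood at 0.82 (0.72 without HCC1395 and MDA-MB-231, 0.76 over the 11 lines of runs 3 to 5). HOXC-AS3 was at 0.78, HOXC10 at 0.74, HOXC13-AS at 0.71 and HOXC13 at 0.68. HOXC12 was at 0.39, HOXC9 at 0.32, HOXC6 at 0.17, HOXC4 at 0.15 and HOXC8 at -0.02. HOXC11 reached 16.1 ± 0.92 CPM in MDA-MB-453, while MDA-MB-231 had 0.124 ± 0.110 CPM. By the rule of the 3 highest correlations over all genes, HOXC11 came after the RNA demethylase gene FTO at 0.88 and LRIG2 at 0.84. For the 11 genes of polycomb repressive complex 2 the median r with HOTAIR was 0.06, from -0.51 for PHF1 to 0.67 for SUZ12.

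LINC00511 separated the lines most often, with 94 pairs (89.5%) and 6 of 14 steps between neighbours in the order. HCC1143 had 111, 109 and 109.8 CPM, HCC70 48.4, 50.1 and 50.4 CPM, HCC1806 43.0, 36.6 and 44.5 CPM, and MDA-MB-468 24.9, 24.1 and 26.7 CPM. At the other end BT-549 had 1.72, 2.75 and 2.14 CPM, HCC1395 1.98, 1.57 and 1.54 CPM, MDA-MB-436 1.80, 1.04 and 2.25 CPM, and MDA-MB-453 0.756, 0.696 and 0.411 CPM. No library of the 4 high lines came near the low ones, and the libraries of HCC1143 had an SD of 0.986 CPM. The lines between were MDA-MB-157 at 17.8 CPM, HCC38 at 16.3, BT-20 at 15.5, HCC1937 at 12.7, Hs578T at 8.53, MDA-MB-231 at 7.65 and HCC1187 at 6.19. The log2 fold change against the other lines was 3.77 ± 0.08 in HCC1143 (edgeR adjusted p 4.06e-36), 2.54 ± 0.09 in HCC70, 2.26 ± 0.10 in HCC1806 and 1.49 ± 0.11 in MDA-MB-468. It was -4.24 ± 0.24 in MDA-MB-453, -2.68 ± 0.18 in HCC1395, -2.65 ± 0.19 in MDA-MB-436 and -2.26 ± 0.18 in BT-549. These 8 calls held in all 11 alternatives in which each line took part.

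Around LINC00511, 9 of 12 tested neighbours had an r above 0 with it, and the median was 0.45 beside -0.03 over all genes. FAM104A, 567 kb away, was at 0.84 (0.89 over the 11 lines of runs 3 to 5), CDC42EP4 at 0.76, SOX9-AS1 at 0.62 and SLC39A11 at 0.61. SOX9 itself, a factor of cartilage and of epithelial stem cells, was at 0.35 and -0.03 over the 8 RPMI 1640 lines, with 43.9 ± 7.4 CPM in HCC1187 and 0.457 ± 0.131 CPM in HCC1806, a line where LINC00511 was high. The gene most like LINC00511 was AKR1C3, an aldo-keto reductase, at 0.91. All 16 epithelial markers had an r above 0 with LINC00511 (median 0.47), with HOTAIR (median 0.48) and with GAS5 (median 0.15). With SNHG1 it was 15 of the 16 (median 0.08). Of the 14 mesenchymal markers, 5 were above 0 with LINC00511, 1 with HOTAIR, 0 with GAS5 and 4 with SNHG1. Their medians were -0.16, -0.30, -0.38 and -0.12. Over all genes the median r was -0.03 with LINC00511, -0.01 with HOTAIR, -0.01 with GAS5 and 0.005 with SNHG1. For CDH1, the gene of E-cadherin, r was 0.61 with LINC00511 and 0.56 with HOTAIR. The summed level of the epithelial markers was 4115 CPM in HCC1143, 8451 in HCC70, 6720 in HCC1806 and 5197 in MDA-MB-468, where LINC00511 was high. It was 103 in BT-549, 267 in HCC1395 and 197 in MDA-MB-436, where LINC00511 was low. MDA-MB-453, the lowest in LINC00511, had 4799 CPM of them. Other lines did not follow this. The markers summed to 161 CPM in Hs578T, 383 in MDA-MB-157 and 11953 in BT-20, where LINC00511 stood at 8.53, 17.8 and 15.5 CPM. LINC00511 and NEAT1 ran opposite to each other over the lines with an r of -0.62, which was -0.30 without HCC1143 and MDA-MB-453.

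**Figure D3:**
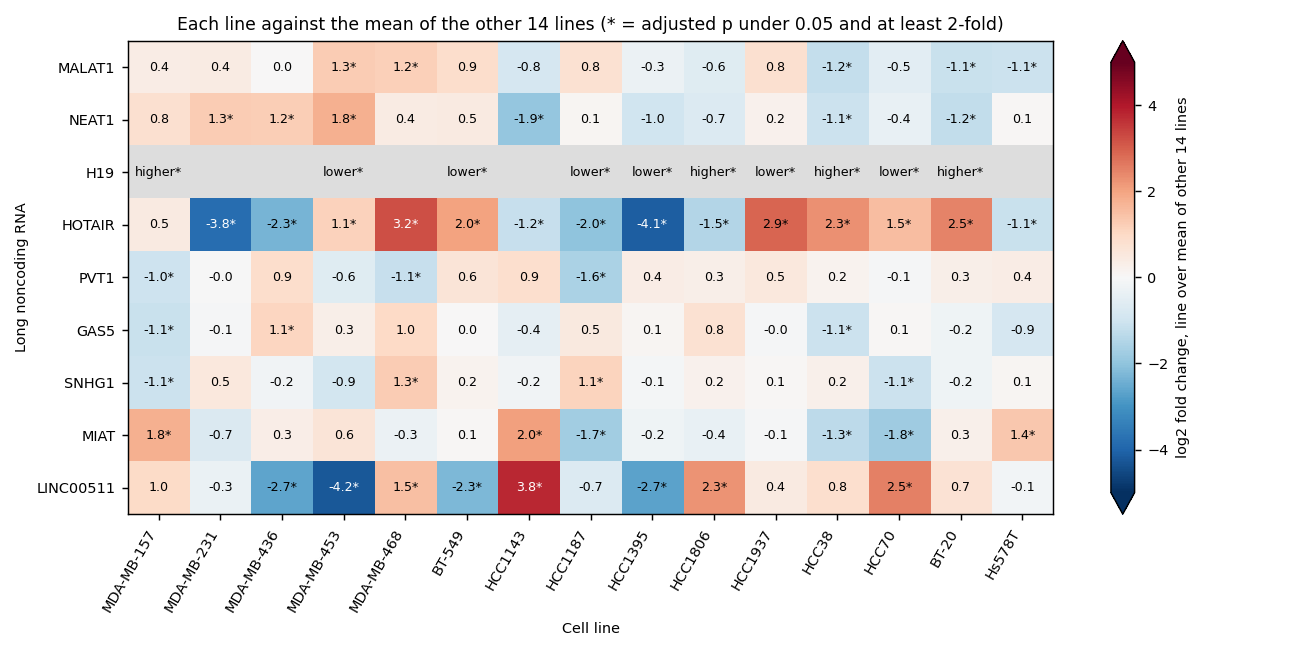
Log2 fold change of each long noncoding RNA in each line over the mean of the other 14 lines (colour and number, RNAs down the page, lines across), with a star where the difference was called and, for H19, the call alone on grey. HOTAIR has 14 stars, H19 10 and LINC00511 8, while PVT1 and GAS5 have 3 each.

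PVT1, the neighbour of MYC, lies at chr8:127794533-128101253 on the plus strand (GENCODE 29, GRCh38) and had no line called higher. The highest libraries were those of MDA-MB-436, with 23.1, 17.4 and 17.7 CPM, and of HCC1143, with 19.7, 21.2 and 16.4 CPM. The lowest were those of HCC1187, with 4.82, 2.50 and 4.48 CPM, of MDA-MB-468, with 6.32, 4.56 and 4.97 CPM, and of MDA-MB-157, with 5.40, 5.71 and 5.87 CPM. The libraries of these last 3 lines lay below every library of the first pair. Those of MDA-MB-468 overlapped with both other low lines, and those of HCC1187 lay below those of MDA-MB-157. The other means ran from 16.5 CPM in BT-549, 15.6 in HCC1937, 14.2 in Hs578T, 13.9 in HCC1395, 13.3 in BT-20, 13.1 in HCC1806 and 12.3 in HCC38 down to 10.7 in MDA-MB-231, 10.5 in HCC70 and 7.40 in MDA-MB-453. One step in the order differed, from HCC70 to MDA-MB-453 (log2 0.50, edgeR adjusted p 0.0305). HCC1187 was lower by log2 -1.57 ± 0.19 (adjusted p 6.04e-10), MDA-MB-468 by -1.13 ± 0.17 and MDA-MB-157 by -1.02 ± 0.17, and the last was lost with both other scalings (-0.92 and -0.99).

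The slope on MYC asked whether the RNAs followed the level of MYC, which was highest in MDA-MB-231 at 199.9 ± 48.4 CPM and lowest in MDA-MB-453 at 17.8 ± 4.0 CPM. None of the 9 passed (edgeR quasi-likelihood test over 15 line sums, 26614 genes). Over all genes 0% rose and 0.139% fell with MYC, 37 genes in number, and 1631 genes had an unadjusted p under 0.05. With 1 value per line the smaller of the slopes put into simulated data were mostly missed as well. The smallest p-values belonged to SNHG1, with a slope of 0.44 ± 0.22 log2 units per log2 unit of MYC (edgeR adjusted p 0.849), and PVT1, with 0.40 ± 0.25 (adjusted p 0.919). The slopes of LINC00511 (0.40 ± 0.72), HOTAIR (-0.47 ± 0.81) and H19 (-1.998 ± 1.81) had wide errors, and those of GAS5, MALAT1, NEAT1 and MIAT lay between -0.20 and 0.04. Under the 11 alternatives the slope of PVT1 stayed between 0.33 and 0.50, with adjusted p between 0.497 and 0.999. Over the line means PVT1 and MYC had an r of 0.42 and a rho of 0.49, and r was 0.19 without MDA-MB-157 and MDA-MB-453. Of the 12 neighbours tested around PVT1, which include MYC, 11 had an r above 0 with it (median 0.36 beside 0.002 over all genes). The pseudokinase gene TRIB1 was highest at 0.66.

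GAS5, a snoRNA host that accumulates in growth arrest, was abundant in every line. MDA-MB-436 had 669, 789.7 and 632 CPM and MDA-MB-468 454, 777 and 755 CPM. HCC38 had 133, 183 and 214 CPM and MDA-MB-157 176, 161 and 178 CPM. The first pair of lines lay above the second without overlap, and no neighbours in the order differed. Means in between were 575 CPM in HCC1806, 482 in HCC1187, 428 in MDA-MB-453, 373 in HCC1395, 364 in HCC70, 354 in BT-549, 339.97 in HCC1937, 338 in MDA-MB-231, 308 in BT-20, 263 in HCC1143 and 202 in Hs578T. The calls were 1.06 ± 0.13 in MDA-MB-436 (edgeR adjusted p 9.40e-10), -1.10 ± 0.16 in MDA-MB-157 and -1.06 ± 0.16 in HCC38. They lay at the fold threshold. With the sequencing run as a block MDA-MB-436 had 0.99 and HCC38 -0.94, and with DESeq2 size factors MDA-MB-157 had -0.9996, so that each call was lost in at least 1 alternative.

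SNHG1, the host of 8 listed snoRNAs, was highest in MDA-MB-468 at 200.7, 241 and 248 CPM and in HCC1187 at 249, 179 and 192 CPM. It was lowest in HCC70 at 51.0, 44.3 and 53.8 CPM, in MDA-MB-157 at 53.7, 42.8 and 53.9 CPM and in MDA-MB-453 at 51.2, 53.6 and 62.7 CPM. All libraries of the first pair lay above all other libraries of the series. The means between were 140.5 CPM in MDA-MB-231, 117 in HCC38, 116 in HCC1806, 112 in BT-549, 108 in Hs578T, 105.5 in HCC1937, 93.9 in HCC1395, 90.4 in MDA-MB-436, 89.0 in HCC1143 and 86.5 in BT-20. The order broke between HCC1187 and MDA-MB-231 (log2 0.56, edgeR adjusted p 0.000766) and between BT-20 and MDA-MB-453 (0.63, adjusted p 0.000276). The log2 fold change against the other lines was 1.28 ± 0.09 in MDA-MB-468, 1.12 ± 0.09 in HCC1187, -1.09 ± 0.12 in HCC70 and -1.07 ± 0.12 in MDA-MB-157. MDA-MB-157 was not called with DESeq2 size factors (-0.97), HCC70 with no filter on low counts (-0.94) and HCC1187 without replicate 1 of every line (0.87).

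GAS5 and SNHG1, both of which make spliced RNAs that are removed by nonsense-mediated decay, had an r of 0.37 with each other over the line means. The 15 decay factors tested all differed among lines (98.2% of all genes), and their median r was 0.05 with GAS5 and 0.26 with SNHG1, where 13 of 15 were above 0. Of 24 other genes listed as snoRNA hosts, 23 were tested and differed (98.2% of all genes), with a median r of -0.03 with GAS5 and 0.17 with SNHG1. The list holds GAS5-AS1, an antisense gene whose exons overlap those of GAS5, and its r with GAS5 was the highest of the list at 0.69. SNORD30, whose sequence is given above, was the one SNHG1 snoRNA with enough counts to be tested and had an r of 0.67 with its host. It shares exon bases with SNHG1 on the same strand, and the part of host reads in this r was not tested. Around SNHG1, 10 of 12 neighbours were above 0 (median 0.30 beside 0.005 over all genes). WDR74, a ribosome assembly gene, led at 0.75 (0.55 without HCC70 and MDA-MB-157). Around GAS5, 9 of 10 were above 0 (median 0.43 beside -0.01 over all genes), led by KLHL20 at 0.56. KLHL20 stood at 0.31 without HCC38 and MDA-MB-436 and at 0.38 over the 11 lines of runs 3 to 5. ZBTB37, which overlaps GAS5 on the opposite strand, was at 0.45, but at -0.21 over the 11 lines of runs 3 to 5.

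MIAT was the least abundant of the 9 per kilobase, with 1 to 42 counts per library, so counting error weighs on its values. It was highest in HCC1143 at 7.18, 7.47 and 6.81 CPM, in MDA-MB-157 at 6.19, 5.33 and 6.76 CPM and in Hs578T at 4.20, 4.797 and 4.92 CPM. It was lowest in HCC70 at 0.712, 0.480 and 0.591 CPM, in HCC1187 at 0.516, 0.770 and 0.538 CPM and in HCC38 at 1.24, 0.1203 and 1.22 CPM. The 3 high lines lay above every library of the other 12, and no neighbours in the order differed. The remaining means were 2.86 CPM in MDA-MB-453, 2.38 in MDA-MB-436, 2.27 in BT-20, 2.07 in BT-549, 1.82 in HCC1937, 1.69 in HCC1395, 1.599 in MDA-MB-468, 1.49 in HCC1806 and 1.21 in MDA-MB-231. The log2 fold change was 2.03 ± 0.24 in HCC1143 (edgeR adjusted p 8.76e-10), 1.79 ± 0.25 in MDA-MB-157 and 1.36 ± 0.27 in Hs578T, and -1.78 ± 0.38 in HCC70, -1.74 ± 0.43 in HCC1187 and -1.31 ± 0.39 in HCC38. Without replicate 2 of every line HCC38 stood at -0.69 and was not called.

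MIAT was the RNA whose neighbours resembled it most often. All 9 tested neighbours had an r above 0 with it over the line means, with a median of 0.65 beside 0.02 over all genes. MIATNB, which overlaps MIAT on the same strand and shares exon bases with it, was at 0.87. SEZ6L was at 0.84 (0.74 without HCC1143 and Hs578T), the transcription regulator gene MN1 at 0.77 and ASPHD2 at 0.66. The lowest was the lipid transfer gene PITPNB at 0.32. The genes most like MIAT anywhere were the receptor gene GABRR1 at 0.90, MIATNB, and CD96 at 0.86. The highest line mean of GABRR1 was 1.63 CPM, so its r rests on few counts. All 16 epithelial markers had an r below 0 with MIAT (median -0.33), as they did with NEAT1 (median -0.30) and PVT1 (median -0.25). Of the 14 mesenchymal markers, 13 were above 0 with MIAT (median 0.32), 9 with NEAT1 (median 0.12) and 12 with PVT1 (median 0.27). Over all genes the median r was 0.03 with NEAT1 and 0.002 with PVT1. With MALAT1, 3 of the 16 epithelial (median -0.04) and 2 of the 14 mesenchymal markers (median -0.17) were above 0. With H19 it was 11 (median 0.05) and 9 (median 0.19).

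**Figure D4:**
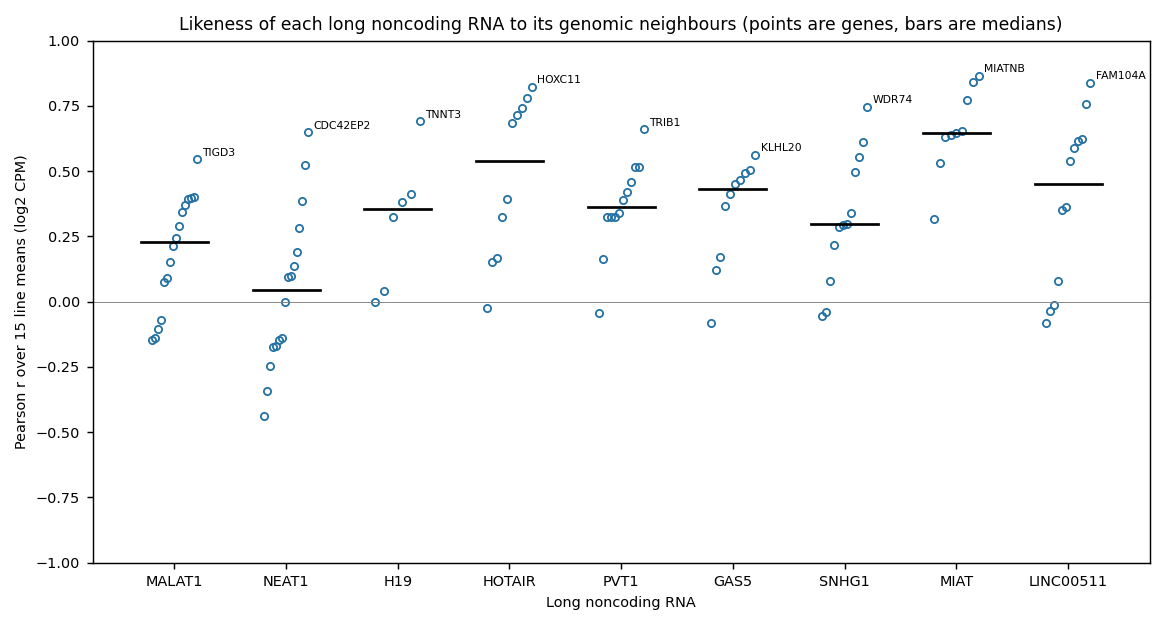
Pearson r of log2 CPM over 15 line means between each long noncoding RNA and the tested genes around it (open circles, HOXC genes for HOTAIR), with black bars for medians and the name of the highest gene. All 9 neighbours of MIAT lie above 0, while those of NEAT1 have a median of 0.05.

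For the other RNAs the genes most alike over the lines were SLC15A3 (0.83), PPP1R32 and TMEM81 for MALAT1, and CACNA1F (0.88), DGKK and C2CD2L for NEAT1. They were HMX1 (0.89), SLC52A1 and AC233755.1 for H19, and ATG7 (0.86) and CTNNA1 for PVT1. For GAS5 they were TENT2 (0.86), STIP1P3 and AL355075.3, and for SNHG1 MUS81 (0.83), RPL12P42 and AP003108.4. None of these overlaps the RNA it resembles. By rank the likeness was weak for some, with a Spearman rho of 0.37 for HMX1, 0.22 for AC233755.1 and 0.37 for CTNNA1. It was 0.71 for SLC52A1 and 0.89 for ATG7. The highest line mean was 2.49 CPM for HMX1 and 1.35 CPM for AC233755.1, so their r rests on few counts.

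The last comparison set the 5 L-15 lines against the 8 RPMI 1640 lines. The medium cannot be told apart from the set of lines kept in it. None of the 9 RNAs passed (edgeR quasi-likelihood test on line sums), and 0% of 20505 genes were called higher and 0% lower, with 2344 genes at an unadjusted p under 0.05. On simulated data of this design the same test recovered few of the changes put in, so a missed threshold here does not show that the media were alike. NEAT1 came closest. Its line levels had a lowest value of 8.39, a median of 9.09 and a highest of 9.62 log2 CPM in the L-15 lines, against 6.16, 7.65 and 8.43 log2 CPM in the RPMI 1640 lines. The ranges overlapped by 1 line of each medium, MDA-MB-468 in L-15 and BT-549 in RPMI 1640. The log2 fold change of NEAT1 was 1.37 ± 0.35 with an edgeR adjusted p of 0.2796. DESeq2 gave 1.36 with an adjusted p of 0.0179 and called it, among 178 genes higher and 255 lower by that tool. For MALAT1 the difference was 0.54 ± 0.37, for LINC00511 -1.52 ± 1.04, for MIAT 0.49 ± 0.62 and for PVT1 -0.48 ± 0.44, with edgeR adjusted p from 0.596 to 0.786. For GAS5, H19, SNHG1 and HOTAIR it was 0.29, 0.03, 0.02 and 0.01, with edgeR adjusted p from 0.773 to 0.997.

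**Figure D5:**
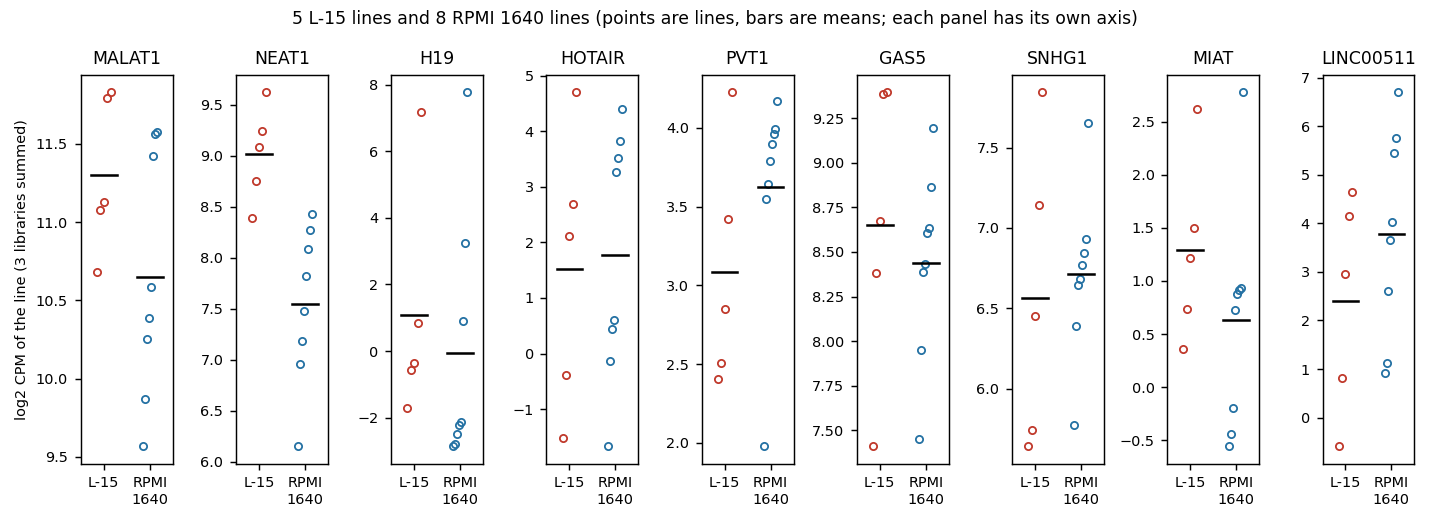
Log2 CPM of each long noncoding RNA in the 5 L-15 lines and the 8 RPMI 1640 lines, with open circles for lines (3 libraries summed) and bars for means, and each panel on its own axis. The NEAT1 panel has 4 L-15 lines above all RPMI 1640 lines, and the other panels overlap widely.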

How the data were processed

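Total RNA was depleted of ribosomal RNA and sequenced from 45 libraries of 15 lines. The authors deposited raw counts per gene. The submitters' processing notes name bcl2fastq 2.20.0.422, FastQC, Trimmomatic, STAR, featureCounts, MultiQC and GRCh38.p12, while no label names the annotation release or the strand setting. Of 64485 gene IDs, 58320 (90.4%) matched GENCODE 29, which gave symbols and coordinates. The others held 0.0785% of counts.

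Counts were scaled by TMM and tested with edgeR 4.0.16 (R 4.3.3), by the quasi-likelihood test with Benjamini-Hochberg adjustment over all genes kept by the filter on low counts (minimum count 10). Lines were compared over 45 libraries, and the slope on MYC and the media over sums of the 3 libraries of a line. DESeq2 1.42.0 was an alternative. The scripts were tested on simulated data. Correlations used log2 CPM with a prior count of 2.

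Each member is named in every comparison, with its 3 most correlated genes (1 of them is not reported here) and up to 3 genes of a list with the widest range. The members and lists were chosen with earlier results of these data known. No pair of libraries of a line agreed within sampling noise. In 11 lines the replicate number follows sequencing runs 3 to 5, so the labels pair libraries by run. Deviations of libraries of different lines had a median r of 0.056 within a run (165 pairs, 55 above 0.1) and -0.030 between runs (330 pairs, 34 above 0.1).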

Additional observations from a re-analysis of the deposited data

Results flagged for a closer look

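In 18 groups of lines grown in 1 medium, 3 lines stood apart from the others by Dixon's test, which chance does in about 1 in 20 groups. H19 in MDA-MB-157 was the highest of the 5 L-15 lines, at 7.18 log2 CPM with the next line at 0.85. This gap took 0.7111 of the range, barely over the critical value of 0.71. The low end of the range was MDA-MB-453, with 4 counts, so it depends on the prior count. MIAT in HCC1143 was the highest of the 8 RPMI 1640 lines, at 2.78 log2 CPM with the next line at 0.94. PVT1 in HCC1187 was the lowest of the 8 RPMI 1640 lines, at 1.98 log2 CPM with the next line at 3.55.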

How the results depend on the processing

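Of the 59 calls of an RNA in a line, no call changed direction in any of the 12 alternatives. Leaving out a replicate of every line gave 49 to 57 calls. With the sequencing run as a replicate block there were 54 calls, and the block changed no call beyond those named beside the results. Another scaling moved the median of all genes in 1 line by up to 0.12 (DESeq2 size factors) or 0.14 (no filter) log2 units. Genes that differ among lines numbered 13391 with only the 4 lines of runs 1 and 2, a set chosen after seeing the data, in place of 20224. Of the 27 most correlated genes, 8 were shared under Spearman correlation and 7 over the 11 lines of runs 3 to 5. DESeq2 called 1 RNA between media, NEAT1.

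Signs turned only among estimates that passed no test, and the cause was not tested. The slope on MYC was -0.000146 for GAS5 without replicate 1 and -0.0156 without replicate 3, and leaving out replicates in turn it reached 0.114. Over the 11 lines it was 0.043 for HOTAIR and -0.76 for LINC00511. Without MDA-MB-453 it was 0.13 for MALAT1, 0.18 for NEAT1 and -0.18 for LINC00511. With L-15 as a covariate it was 0.000299 for MALAT1. Between media, HOTAIR and SNHG1 had -0.00438 and -0.00199 with DESeq2 size factors, -0.093 and -0.0998 with no filter, -0.00416 and -0.00196 with DESeq2, and -0.029 and -0.025 without replicate 2, with 0.110 for HOTAIR without replicate 1. SNHG1 had -0.14 over the 11 lines, and H19 -0.24 with no filter. Counts of 1 to 42 per library limit MIAT, and counts of 1 to 4 per line limit H19 in its low lines.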

Other observations

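Other long noncoding RNAs studied in cancer had a median log2 range of 4.07 over the lines, beside 2.76 over all genes. Of 46 listed, 36 were tested and all 36 differed among the lines, beside 98.2% of all genes. The 3 with the widest range are described here. MIR205HG, the host of an epithelial microRNA, reached 501 ± 114 CPM in HCC1806 (SD, n = 3), and in Hs578T it was 0.1999 ± 0.346 CPM. UCA1, first described in bladder cancer, had 152 ± 58 CPM in HCC1937 and 0.119 ± 0.107 CPM in HCC1395. LINC01133 had 136 ± 15 CPM in HCC70 and 0.227 ± 0.199 CPM in HCC1395. None of the tested members of this list passed along MYC or between media.

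Among the other snoRNA hosts, SNHG18 had 29.8 ± 3.8 CPM in BT-20 and no count in HCC1395. MEG8 had 50.3 ± 15.7 CPM in Hs578T and 0.636 ± 0.182 CPM in HCC70, and SNHG14 had 95.9 ± 15.2 CPM in MDA-MB-157 and 4.05 ± 0.66 CPM in HCC70.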
